A study of Homo sapiens with 2 samples.

Results

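Distal 17q is described here by the MYC peaks whose summit lay above 44000000 on chromosome 17 (GRCh37). The rule uses position only, and it took in 616 of the 17659 peaks of the authors' list (3.49%). The other 582 peaks of chromosome 17, with summits below 44000000, served for comparison. The nearest peaks to the boundary were at chr17:43971544-43971744, with a fold of 5.19, and at chr17:44178869-44179025, with a fold of 5.01. All peaks came from 1 ChIP-seq library of MYC with 1 input library, both from TET21, a human neuroblastoma line cloned from SH-EP with a MYCN transgene that doxycycline represses. The cells ectopically expressed full-length MYC, and had received 1 µg/mL doxycycline for 7 days before fixation with 1% formaldehyde. The antibody, a rabbit polyclonal made by the submitters, is not stated to separate ectopic from endogenous MYC. The experiment was meant to locate MYC on the genome. With 1 library there is no replicate error and no test between the 2 parts of the chromosome. The 95% intervals below cover counting error or the spread among peaks, and treat peaks as independent although many are neighbours.

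MYC binds DNA as a dimer with its partner MAX, and the sequence it is best known to bind is the E-box, CACGTG. It is found mostly at active promoters, where it is known for raising genes of ribosome production, nucleotide synthesis and cell division. Gain of the distal long arm of chromosome 17 is among the most frequent chromosome changes of neuroblastoma. The segment is known to carry NME1 and NME2 (nucleoside diphosphate kinases), BIRC5 (the apoptosis inhibitor survivin), PPM1D (a phosphatase that opposes p53 signalling), the HOXB homeobox cluster and a growth hormone gene cluster.

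The gene table and promoter sequences at hand are on GRCh38, so no peak was assigned to a gene, and the sequences under the peaks are not analysed here. To show what an E-box looks like in genes of this segment, RefSeq promoters (GRCh38.p14, 250 bases before to 50 after the start) were searched for CACGTG, which reads the same on both strands. For this, 100 gene symbols were put into lists by function. Neither their place against the boundary nor the function of each member was checked. Of these symbols, 59 had a promoter in the table and 6 of the 59 (10.2%) held the motif. Of all 35093 promoters 7.26% held it, and of the 1639 on chromosome 17 9.64%. The motif was in 3 of 11 promoters of the list on ribosome production and translation, in 2 of 10 of the splicing list and in 2 of 9 of the metabolism list. It was in 1 of 12 promoters of the list named for mitochondrial proteins, which also names ACE, and in 1 of 12 of the genes discussed for 17q gain. None of the 10 promoters of the list on mitosis and replication held it, nor did those of 6 chromatin regulators, 1 HOXB gene and 3 tissue-restricted controls. Some genes are in more than 1 list, so these counts are not separate. Both matches of the splicing list, DDX5 and EIF4A3, are also counted in the ribosome list. NME1 is counted in the metabolism list and is the match among the genes discussed for 17q gain. The 8 matches are shown because they are the sequence MYC is known for, with the E-box in capitals. They describe the reference sequence, and whether MYC was bound there was not tested.
NME1, a nucleoside diphosphate kinase: tgctgcgaacCACGTGggtcccgggc
UTP18, a small-subunit ribosome assembly factor, before the start: gagtgctggtCACGTGgcaagaggct
UTP18, after the start: agcgaggttcCACGTGagcgcctgcg
DDX5, an RNA helicase: gtggtacagcCACGTGacaacgccag
EIF4A3, the helicase of the exon junction complex: agttccctttCACGTGacgaagagtg
GAA, the lysosomal enzyme that breaks down glycogen, farther from the start: gaggccgcgtCACGTGacccaccgcg
GAA, nearer to the start: tcccgccggtCACGTGacccgcctct
ATP5MC1, a subunit of the mitochondrial ATP synthase: aggtccaggaCACGTGggtgggggaa

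Listed MYC peaks were dense on distal 17q and very unevenly spread. The 616 peaks lay over 37.1 Mb, which is 16.6 peaks per Mb (exact Poisson 95% interval 15.3 to 18.0), against 13.2 per Mb (12.2 to 14.4) over the 43.9 Mb below the boundary. Without peak-free stretches of over 1 Mb, which on the lower part include the one across the centromere, the densities were 19.7 (18.2 to 21.3) and 16.9 (15.6 to 18.4) per Mb. The intervals of the 2 parts did not overlap over the whole span, and overlapped at their ends without the peak-free stretches. The peaks of distal 17q covered 180.0 kb, and those below the boundary 157.9 kb. These are densities of listed peaks, none with a −log10 p under 4.00. A lower fold reaches that value where the background is higher. The lower quartile of fold was 5.17 on distal 17q and 5.35 below the boundary. Peaks at a fold of 10 or more numbered 111 and 104 in these parts, and at 20 or more 16 and 19. Densities above a fold cut were not computed.

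The end of the chromosome held the most sites. From 74 Mb to the last peak there were 237 peaks, or 33.5 per Mb (29.4 to 38.1). The 10-Mb blocks before it held 139 peaks (44 to 54 Mb), 112 peaks (54 to 64 Mb) and 128 peaks (64 to 74 Mb), with densities of 13.9, 11.2 and 12.8 per Mb. The intervals of these 3 blocks overlapped one another and lay below that of the last block. The terminal block also had the largest share of peaks at or above a fold of 10, with 50 peaks or 21.1%. The other blocks had 14.8% to 18.0%. No interval was computed for these shares, so their order is not settled. The median pileup, the number of ChIP fragments over a summit, was 18 in the terminal block (interval 17 to 19). In the others it was 16 (15 to 17), 15 (14 to 18) and 16 (14 to 17) from 44 Mb outward. These intervals overlap that of the terminal block.

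At a finer scale, 5 windows of 1 Mb held 39.0% of the peaks. They were 79 to 80 Mb with 64 peaks (95% interval 49.3 to 81.7), 73 to 74 Mb with 52 (38.8 to 68.2), 48 to 49 Mb with 45, 76 to 77 Mb with 42 and 74 to 75 Mb with 37. The intervals of the first pair overlap, so their order is not settled by these counts. Windows with 20 or more peaks numbered 10 of 38 and held 59.6% of the peaks of distal 17q. Below the boundary they numbered 11 of 44 and held 55.0% of its peaks. At 100 kb, the fullest stretch was 79.8 to 79.9 Mb with 17 peaks, 6 of them with a fold of 10 or more and the best with a fold of 26.0. The stretch from 76.3 to 76.4 Mb followed with 15 peaks, of which 3 reached a fold of 10. Of all distal peaks 18.0% did, and 15.4% of the whole list. The median fold in that stretch was 5.12, against 6.47 for distal 17q. The stretch from 48.2 to 48.3 Mb held 11 peaks, with 4 at a fold of 10 or more and the best at 22.03. Whether stretches of 100 kb with many sites differ in their share of strong ones was not tested, and these counts are small.

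**Figure D1:**
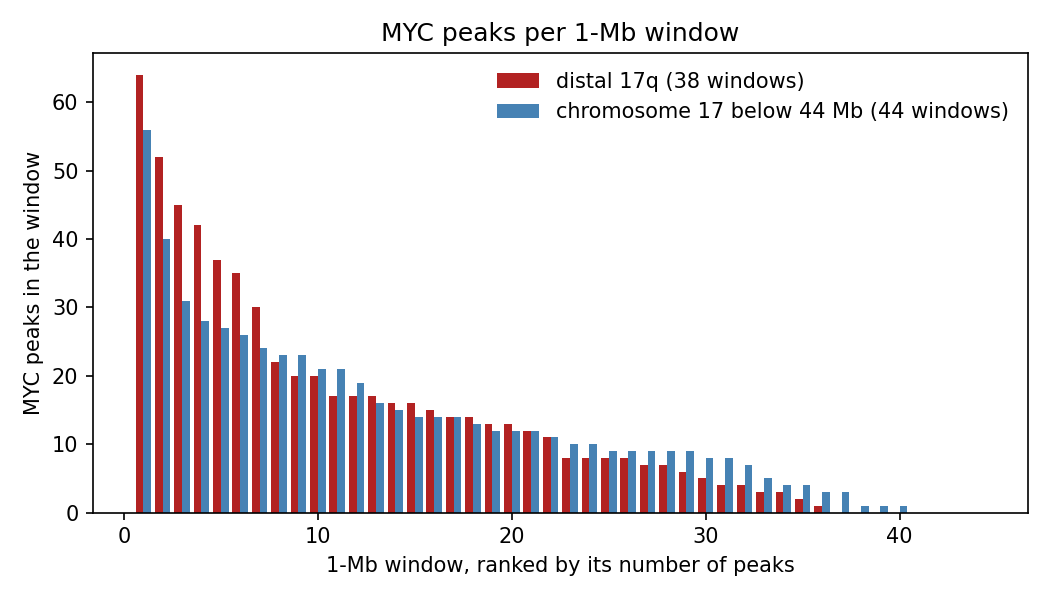
Number of MYC peaks in each 1-Mb window (bars), ranked within distal 17q (red, 38 windows) and within chromosome 17 below 44 Mb (blue, 44 windows). The fullest distal window holds 64 peaks and the fullest window below the boundary 56.

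Other stretches held no site. The longest without a peak ran from 49338366 to 52978409, a length of 3.64 Mb, directly after a region of 3 peaks at chr17:49336627-49338365 whose best fold was 12.3. It ended at a lone peak at chr17:52978410-52978599 with a fold of 6.47, whose nearest neighbour was 337 kb away. Further stretches of over 1 Mb lay from 53533094 to 54671003 (1.14 Mb) and from 59489978 to 60501147 (1.01 Mb). Between 66.8 and 72.2 Mb, 5 more stretches of over 500 kb were empty. In all, 10 stretches over 500 kb summed to 10.4 Mb on distal 17q, and 12 summed to 14.3 Mb below the boundary. The most isolated peak, at chr17:63746808-63747011, lay 391.5 kb from any other and had a fold of 7.39 on 14 fragments.

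The strongest site of distal 17q by significance was at chr17:75084615-75084968. There 100 fragments (95% Poisson interval 81.4 to 122) lay over a local background of 1.69 expected fragments, for a fold of 37.6 at a −log10 p of 137.77. It ranked 3 of the whole list by −log10 p, 12 by fold and 8 by pileup. The next, at chr17:61850751-61851857, had the highest fold of the segment, 40.1, on 92 fragments (74.2 to 113), and ranked 4 of the whole list by fold. It was also among the widest peaks, at 1107 bp. The third, at chr17:49230663-49231317, had a fold of 32.8 on 87 fragments (69.7 to 107). The count intervals of these 3 sites overlap, so their order by pileup is not settled. The folds given here are smaller than the plain ratio of pileup to background, because a constant is taken as added to both.

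Sites 4 to 10 had folds between 21.5 and 31.1. The peak at chr17:76858133-76858725 rested on 68 fragments and had a fold of 31.1. The peak at chr17:79961331-79961892 had more fragments, 76, but a fold of 25.8, because its background was 1.98 expected fragments against 1.22. A fold of 28.5 was found at chr17:66287317-66287947. Folds of 26.0 and 25.7 were found at chr17:79829150-79829589 and chr17:79678802-79679440, both in the fullest window. The remaining 2 sites were at chr17:48286805-48287267, with a fold of 21.5 on 63 fragments, and at chr17:61511132-61511480, with a fold of 25.2 on 55.

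A further site shows how the ranking moved with the measure. The peak at chr17:49243932-49244565, in the same window as the third site, had 68 fragments over a background of 2.64. It ranked 32 of the whole list by pileup, 82 by −log10 p and 322 by fold. Still farther apart were the ranks of the peak at chr17:57784632-57784965, which was 56 by pileup and 898 by fold, with 61 fragments over a background of 3.30.

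The strongest sites stood alone about as often as distal peaks at large, of which 364 of 616 did. Peaks no more than 1 kb apart, edge to edge, were joined into regions. Of the 10 most significant distal peaks, 6 formed a region of their own, 1 had a single partner and 3 lay in regions of 3 or more. Among 16 peaks at or above a fold of 20 (2.60%; 1.43% of the whole list passed this fold), 11 stood alone and 3 lay in regions of 3 or more. Below the boundary 19 peaks (3.26%) reached that fold, of which 10 stood alone and 8 had a single partner. At a fold of at least 10 there were 111 distal peaks (18.0%, Wilson 95% interval 15.2 to 21.2), where 15.4% of the whole list passed, and 104 peaks below the boundary (17.9%, 15.0 to 21.2). The distal share and that below the boundary were thus close, with nearly the same interval.

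Close neighbours were nevertheless frequent. On distal 17q 252 peaks (40.9%, 37.1 to 44.8) had another within 1 kb, where 32.8% of the whole list did and 205 (35.2%, 31.4 to 39.2) below the boundary. The intervals of the 2 parts of the chromosome overlap, and that of distal 17q lies above the share of the whole list. The median distance to the nearest other peak was 3136 bp (2182 to 4485) on distal 17q and 5450 bp (3459 to 9166) below the boundary. Joining gave 469 distal regions, of which 364 held 1 peak, 74 held 2 and 31 held 3 or more. Regions of 3 or more contained 104 peaks (16.9%, 14.1 to 20.04), where 8.37% of the whole list lay in such regions and 11.9% (9.48 to 14.7) below the boundary. The difference came at regions of exactly 3, which numbered 25 on distal 17q and 13 below the boundary, while each part had 6 regions of 4 or more. The gaps inside joined regions had a median of 279 bp, and the shortest was 52 bp. Peaks this close may or may not be separate sites, which was not tested.

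**Figure D2:**
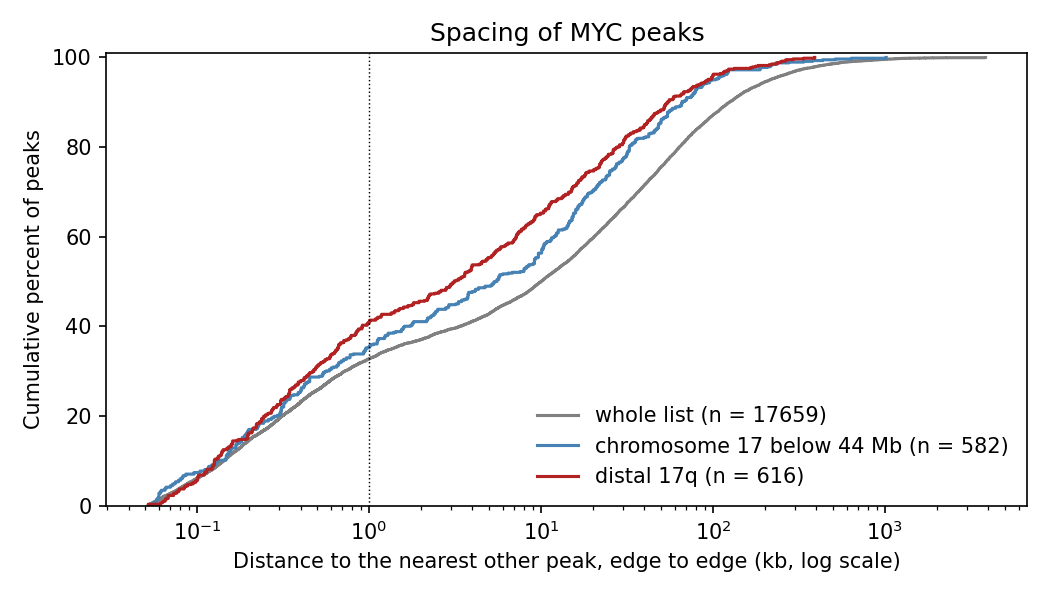
Cumulative percent of peaks (vertical axis) by distance to the nearest other peak on a log axis in kb, for distal 17q (red), chromosome 17 below 44 Mb (blue) and the whole list (grey). At 1 kb, the dotted line, the curves stand at 40.9%, 35.2% and 32.8%.

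Crowding differed along the segment. In the window from 46 to 47 Mb 21 of 30 peaks had a neighbour within 1 kb (Wilson interval 52.1% to 83.3%), and in that from 79 to 80 Mb 54.7% of 64 peaks did (42.6 to 66.3). Between 72 and 73 Mb none of 14 peaks did, which allows a share of up to 21.5% by the Wilson interval. The block from 44 to 54 Mb had the largest share of close neighbours among the 4 blocks, 50.4% (42.1 to 58.6). Its density of 13.9 per Mb counts the empty 3.64 Mb within it. Its windows from 46 to 47 Mb and from 48 to 49 Mb held 30 and 45 peaks. The terminal block stood at 42.2% (36.1 to 48.6), and the middle blocks at 33.9% (25.8 to 43.1) and 34.4% (26.7 to 42.95). The intervals of the 4 blocks overlap one another, so their order is not settled.

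Fold hardly changed with crowding. Lone distal peaks had a median fold of 6.47, those in regions of 2 a median of 6.66 and those in regions of 3 or more a median of 6.11. Over the 616 peaks the rank correlation of fold with the distance to the nearest peak was 0.02, given as a description since all come from 1 library. Width did go with pileup (rank correlation 0.67). Peaks wider than 500 bp numbered 60 (9.74%, 7.64 to 12.3), where 6.82% of the whole list were that wide and 35 (6.01%, 4.36 to 8.25) below the boundary. The 36 peaks with a pileup of 40 or more had a median width of 550 bp, against 240 bp for all distal peaks. The widest, at chr17:80056053-80057210, spanned 1158 bp with a fold of 19.0. A peak nearly as wide, at chr17:60704080-60705228, had a fold of only 9.15.

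The regions of 4 or more peaks differed in how their fragments were shared out. At chr17:79826070-79829589, 6 peaks lay within 3520 bp, and 1 of them dominated: the last, with 64 fragments and a fold of 26.0. The other 5 rested on 10 to 17 fragments, with folds from 4.37 to 7.15. The region at chr17:47072590-47076026 held 5 peaks in 3437 bp, of which 2 were strong. Its second peak had the most fragments, 43, but over a background of 3.30, for a fold of 10.2. Its best peak by fold had 38 fragments over 1.41, for a fold of 16.2.

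The region at chr17:71287680-71290024 had 4 peaks, led by one with a fold of 12.1. Its first peak had 27 fragments but a background of 4.62, the upper end of the range on the segment, so that its fold was 4.98. In the remaining 3 regions no peak stood out. The 6 peaks at chr17:74379423-74382264 had folds from 3.86 to 7.05 and 8 to 23 fragments. The 4 peaks at chr17:80477051-80478563 had folds from 5.04 to 7.53, and the 4 at chr17:73284869-73286431 had 14 to 17 fragments each with folds from 3.72 to 6.24. Among the 25 regions of exactly 3 peaks the best fold ranged from 4.95 to 25.2 with a median of 10.0. Of them 13 had a peak at a fold of 10 or more, but each had 3 peaks that could reach it. Counted by peak, 20.2% of those in regions of 3 or more reached that fold, close to the 18.0% of all distal peaks and 15.4% of the whole list.

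**Figure D3:**
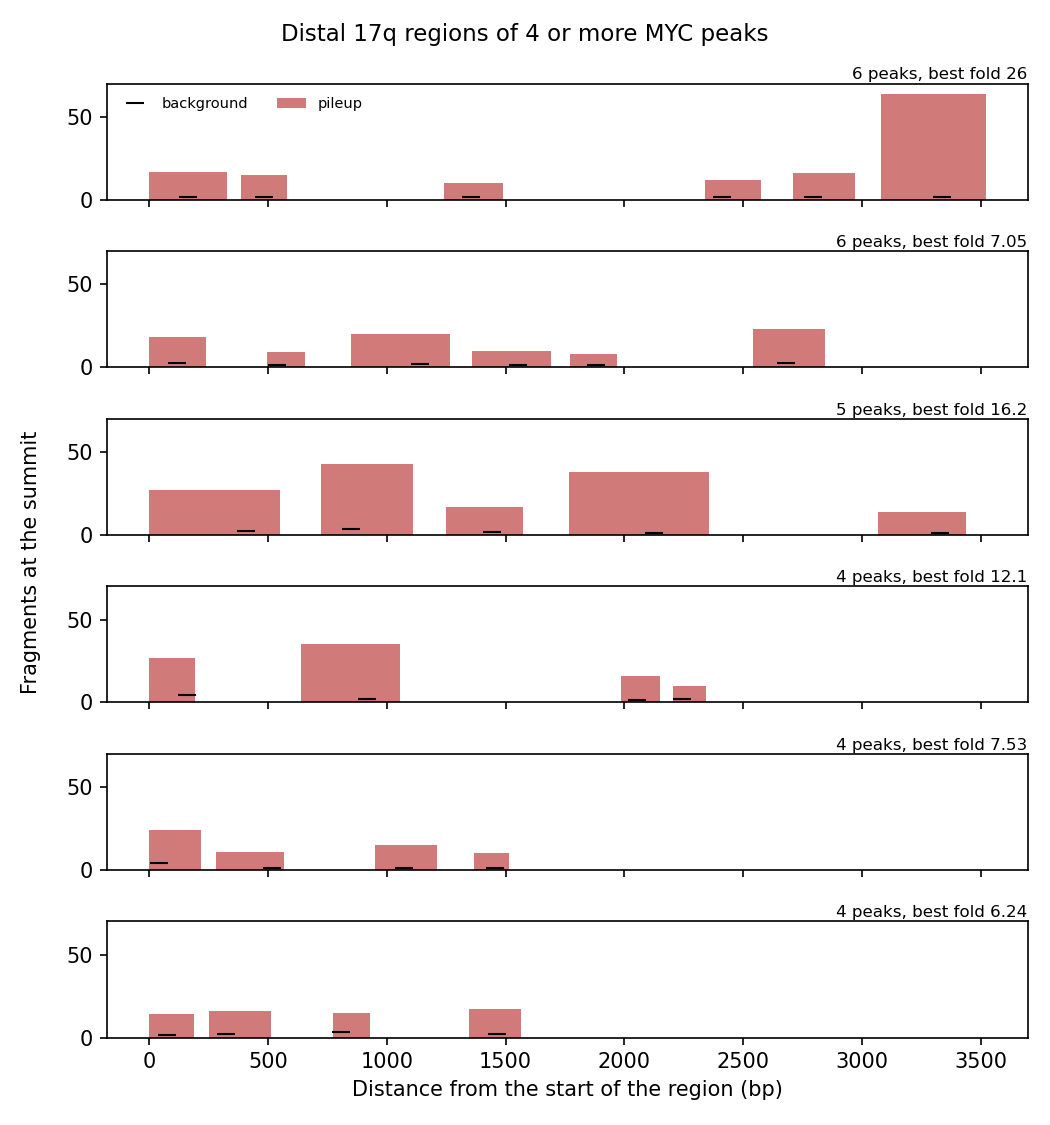
The 6 distal 17q regions of 4 or more joined peaks, each drawn from its start (horizontal axis, bp); a bar spans a peak and its height is the ChIP pileup at the summit, and the short black line is the local background there. The first region has 1 peak of 64 fragments beside 5 of 10 to 17, while the last has 4 peaks of 14 to 17.

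The level under the peaks was higher on distal 17q than on the rest of chromosome 17. The local background, the number of fragments the caller expected at a summit, was recovered from fold and p. Its median was 1.499 expected fragments (interval of the median 1.41 to 1.59) on distal 17q and 1.03 (1.00 to 1.12) below the boundary, a ratio of 1.46. The whole list had a median of 1.12. Only 1 distal peak (0.16%, 0.03 to 0.91) sat at the lowest background of the list, 0.683 fragments, against 59 (10.1%, 7.94 to 12.9) below the boundary. A background of 1.9 or more was found under 206 distal peaks (33.4%, 29.8 to 37.3) and under 81 (13.9%, 11.3 to 16.97) below the boundary. The backgrounds often repeated at a few levels. The most common on distal 17q were 1.32, 1.98 and 2.64, under 13.6%, 14.8% and 8.60% of its peaks. No counting error was computed for the background of a peak. The boundary was proposed with the rise of the background near it known, so these values describe that rise and do not test it.

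The higher level ran along the whole segment. The block medians were 1.41, 1.41, 1.59 and 1.52 expected fragments from 44 Mb outward, with overlapping intervals. Among the 30 distal windows of 1 Mb with at least 5 peaks, the median background ranged from 1.19 to 1.98. Among 33 such windows below the boundary it ranged from 0.750 to 1.32, so the ranges overlap. The window from 69 to 70 Mb, with only 3 peaks, had a median of 1.10. In the windows next to the boundary the median was 0.932 from 43 to 44 Mb, with 24 peaks, and 1.41 from 44 to 45 Mb, with 7. The first distal peak itself, with a background of 0.797, was below the median of the lower part.

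**Figure D4:**
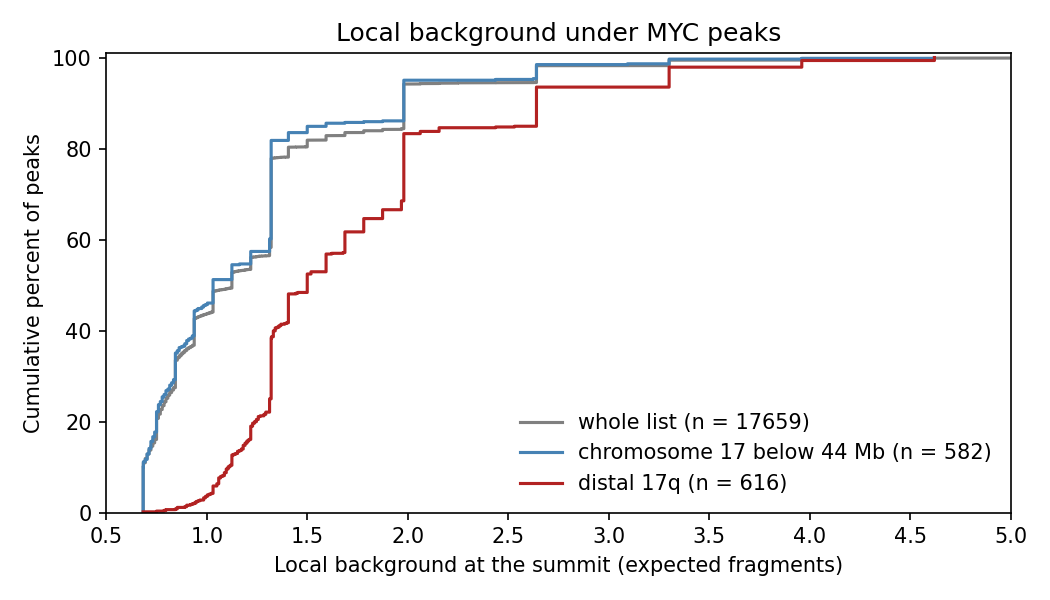
Cumulative percent of peaks (vertical axis) by local background at the summit in expected fragments, for distal 17q (red), chromosome 17 below 44 Mb (blue) and the whole list (grey; values above 5 not shown). The distal curve lies to the right, with a median of 1.499 against 1.03 below the boundary.

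ChIP pileup was higher as well, and fold was not. The median distal peak had 16 fragments (16 to 17) and the median peak below the boundary 13 (12 to 13), a ratio of 1.23. The median fold was 6.47 (6.24 to 6.65) and 6.50 (6.31 to 6.74), a ratio of 0.995. Fold has a constant added to pileup and background, so their plain ratio need not be equal in both parts. That ratio was not computed. The lowest pileup called was 8 on distal 17q and 5 below the boundary. No peak of the list had a −log10 p under 4.00. Reaching that value takes more fragments where the background is higher, so pileup among listed peaks is not independent of background. Pileups of at least 40 were seen in 36 distal peaks (5.84%, 4.25 to 7.99), where 2.22% of the whole list had them, and in 22 below the boundary (3.78%, 2.51 to 5.66). More copies of a segment and more binding or fragments per copy cannot be told apart in these values.

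At equal background the parts can be set side by side. Where the background was 1.32 fragments (within 0.005), 84 distal peaks had a median pileup of 15 and 126 peaks below the boundary one of 13. At 1.98 the medians were 17 in 91 distal peaks and 15.5 in 52. At 2.64 the order was the opposite, 18 in 53 distal peaks and 22 in 18. The lowest distal pileups at these 3 levels were 8, 9 and 10 fragments, and below the boundary 7, 9 and 11. The least significant distal peak, at chr17:71308025-71308210, had 10 fragments over 2.64, which gave a fold of 3.02 at a −log10 p of 4.00.

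**Figure D5:**
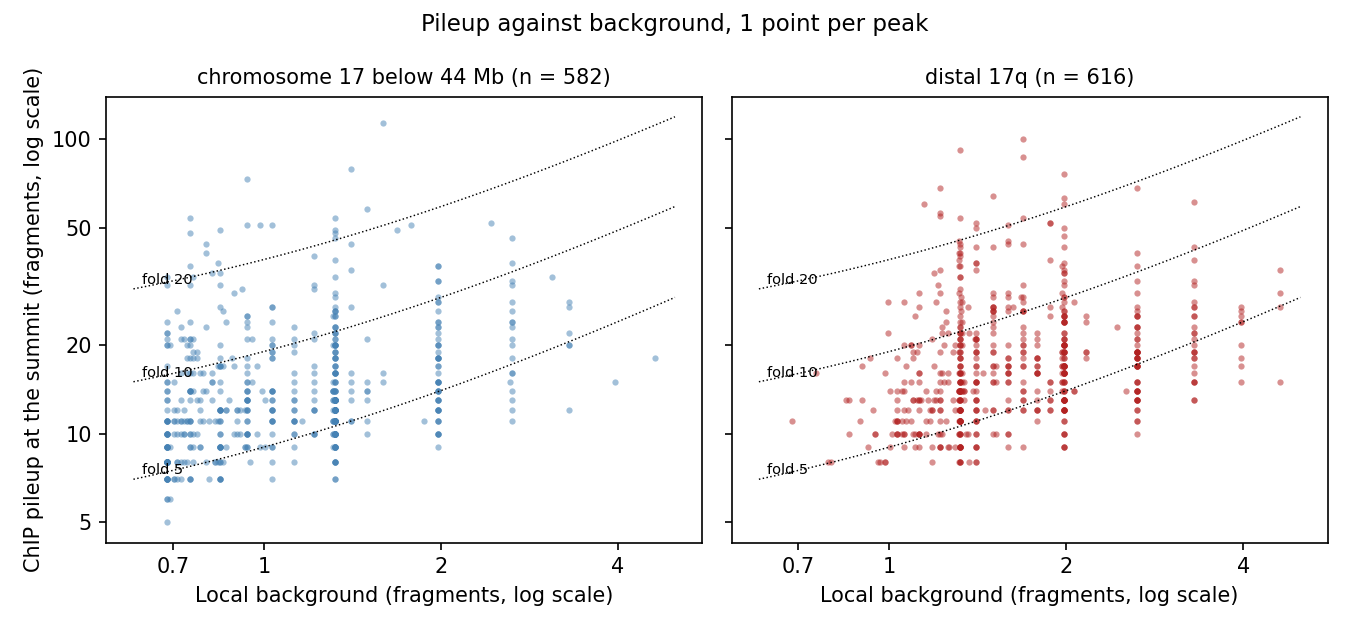
ChIP pileup at the summit (vertical, log axis) against local background (horizontal, log axis), both in fragments, with 1 point per peak below the boundary (blue) and on distal 17q (red); dotted lines mark folds of 5, 10 and 20. Distal points lie farther right and higher, with medians of 1.499 and 16 fragments against 1.03 and 13, along the same lines of equal fold.

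The measure used also set how many of the strongest sites of the list lay on distal 17q. By pileup it held 46 of the top 500 (9.20%, 6.97 to 12.1), by −log10 p 39 (7.80%) and by fold 31 (6.20%, 4.40 to 8.67), where it held 3.49% of all peaks. The part below the boundary, with 3.30% of all peaks, held 28, 31 and 30. By fold the 2 parts were thus nearly equal in the top 500, and by pileup the distal count was higher, with intervals that overlap (6.97 to 12.1 and 3.903 to 7.97 percent). In the top 2000 by fold distal 17q held 80 peaks (4.00%, 3.23 to 4.95), an interval that includes its share of all peaks. The part below the boundary held more there, 87 (4.35%, 3.54 to 5.34), so the order of the 2 parts by fold changed with the number of top peaks taken.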

How the data were processed

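The file analysed is the authors' deposited peak list of 1 MYC ChIP-seq library. Per the submitters' processing notes, the build was GRCh37 and the tools included MACS2 2.1.0 and STAR 2.5.2a, as well as Picard 2.7.1 and SAMtools 1.3, with no role given. The authors' deposited values are a fold (ratio over local background), −log10 p and −log10 q values, a score that follows the −log10 q, and the summit's distance from the peak's start; the rule by which the list was filtered is not given in the sources used here. The library depth is unknown.

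Positions were made 1-based. Assuming MACS2's definitions, the pileup at each summit was taken as the whole number, between 3 and 699, that explains fold and −log10 p together, and the background follows from it; 100.0% of peaks matched within 0.001, and 100.0% of 938 peaks were recovered in simulated data. The simulated data were made with the same formulas, so their recovery checks the arithmetic and cannot test the assumed definitions. They also did not reach the highest backgrounds and pileups of the list. Distances are edge to edge over the whole list. Shares have Wilson 95% intervals, counts exact Poisson intervals, and medians intervals from order statistics. Python 3.11.15, numpy 2.4.6, pandas 2.3.3 and scipy 1.17.1 were used.

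Named positions are the 10 distal peaks with the highest −log10 p, regions of 4 or more peaks, the fullest windows and the longest peak-free stretches; others were singled out after their values were seen. Start-site and peak-sequence results were not computed, for want of a GRCh37 annotation and sequence. The members and gene lists were chosen with earlier results of these data known.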

Additional observations from a re-analysis of the deposited data

How the results depend on the processing

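Among 40 alternatives, 27 kept the value inside its interval (for counts, within 1.5 times) and 13 did not; the cause was not tested beyond what each setting does by construction. With only the stronger peaks of the list (−log10 p from the median, 10.32, upward) there were 377 distal peaks (10.2 per Mb) and 299 below the boundary (6.81 per Mb, in 269 joined regions), and 28.6% and 18.7% of them had a neighbour within 1 kb. Leaving peak-free stretches over 1 Mb out of the span gave 19.7 and 16.9 peaks per Mb. Within 500 bp, 31.2% of distal peaks and 28.7% below the boundary had a neighbour, and within 2000 bp 45.6% and 41.1%. Medians of fold, pileup and background stayed within their intervals with the boundary at 43 or 45 Mb and among peaks over 10 kb from any other. The distal density and share with neighbours were above those below the boundary in the settings run for them (stronger peaks, the span, and 500 or 2000 bp), as were the distal pileup and background in theirs (both boundaries and peaks over 10 kb from any other). The setting of stronger peaks cuts on −log10 p, with a median of 11.5 on distal 17q and 10.5 below the boundary at nearly equal median fold. It therefore keeps a larger part of the distal peaks, and cannot serve as separate support for either difference. The alternatives on start sites and motifs were not run. No paired analysis was possible because there is 1 ChIP library and 1 input library, and no replicate could be left out. The lowest pileup listed was 8 fragments on distal 17q and 5 below the boundary; the library depth is unknown.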
